A study of Bos taurus with 13 samples.

Results

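The genes described here are markers of cytotoxic lymphocytes and natural killer (NK) cells, along with *TTC38*. The rule listed 10 gene names, of which 9 were found among the 16095 named genes of the count tables: *NCR1*, *NKG7*, *PRF1*, *GZMA*, *GZMB*, *KLRB1*, *EOMES*, *TBX21* and *TTC38*. No row was listed under the name *GNLY* (granulysin, a granule protein that permeabilises membranes), so it was not analysed here. RNA-seq was carried out on whole blood from the tail vein of lactating, clinically healthy Italian Red Pied cows of 1 commercial farm, which had been ranked on the cortisol concentration of their milk. Of the 13 cows analysed, 7 had high milk cortisol (replicates 1 to 7) and 6 had low milk cortisol (replicates 8 to 13). No treatment was given to either group, both shared breed, lactation and farm, and globin transcripts were not depleted. A high cow had between 12198355 and 23709740 counts on named genes and a low cow between 11045599 and 28124575. All 9 genes passed the filter on low counts, with 30 (*KLRB1*) to 5020 (*TBX21*) reads per cow, and 11033 genes were tested in all.

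Cytotoxic lymphocytes kill infected or transformed cells by releasing granules, in which perforin opens the membrane of the target cell and granzymes enter to start its death. NK cells do this through germline-encoded activating receptors and CD8 T cells through the T cell receptor, and in both lineages the programme is switched on by T-box transcription factors. *TTC38* encodes a tetratricopeptide repeat protein of little-described function that appears in gene signatures of human NK and effector cytotoxic T cells. It was included for its small p-value in the comparison of high with low cortisol, where it was at rank 5 by p among the genes over-expressed in the high group. *HBM* (rank 4, log2 fold change 2.76, SE 0.78) stood just before it and *FAM84A* (rank 6, log2 fold change 1.37, SE 0.41) just after it. The difference in *TTC38* between the groups is therefore given below as a description without a test. Whether *TTC38* varied with the cytotoxic genes from cow to cow, and whether those genes differed between the groups, are the questions addressed here.

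The genes lie on 7 chromosomes on UMD3.1, the build of the count tables. *NCR1*, which encodes the activating NK receptor NKp46, is at chr18:62860199-62864521 on the forward strand with 7 counted exons. *NKG7*, a membrane protein of cytotoxic granules, is on the same chromosome at chr18:57812529-57815281 on the reverse strand with 5 counted exons. *PRF1* (perforin) is at chr28:26939280-26941721 on the reverse strand with 2 exons, and the protease gene *GZMA* is at chr20:24033747-24042721 on the reverse strand with 8 exons. *GZMB*, the other granzyme gene, was listed at 2 loci of chromosome 21, chr21:35135771-35137852 on the forward strand and chr21:35264590-35267979 on the reverse strand, and the reads of both were summed in 1 count, so the copies cannot be told apart. *KLRB1*, the lectin-like receptor CD161, is at chr5:100949064-100961494 on the forward strand. The T-box factors *EOMES* and *TBX21* (T-bet) are at chr22:2112410-2117440 and chr19:39351741-39363523, both on the reverse strand. *TTC38* is at chr5:117650285-117673269 on the forward strand with 17 counted exons. The counted features were exons, and no exon or span of the 9 genes overlapped that of another named gene.

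Levels were first compared between the genes as CPM (reads of a gene scaled to a common library size) per kb of counted exon length. *NKG7* (61.3 ± 18.0 CPM per kb, SD, n = 13), *TBX21* (58.5 ± 11.1), *PRF1* (57.8 ± 12.5) and *GZMB* (53.9 ± 23.8) were the highest. No test between neighbours in this order passed the threshold (exact two-sided sign-flip test over 13 cows, p = 0.701, 0.646 and 0.304). For *GZMB* the reads and the counted length (1711 bp) both cover its 2 loci, so its place in the order is that of the 2 loci together. *TTC38* came next with 26.3 ± 6.24 CPM per kb. It was lower than *GZMB* in 12 of 13 cows (mean log2 ratio of *GZMB* to *TTC38* 0.95, exact p = 7.3e-04, adjusted over 8 neighbouring pairs 0.00293) and higher than *NCR1* in 13 of 13 cows (mean log2 ratio 1.24, exact p = 2.4e-04, adjusted 0.00195). *NCR1* (11.1 ± 2.51 CPM per kb), *GZMA* (9.79 ± 6.75), *KLRB1* (7.18 ± 3.50) and *EOMES* (5.11 ± 1.13) were the lowest, and the tests between neighbours in this order did not pass the threshold (exact p = 0.118, 0.181 and 0.0627). The variation between cows was largest in *GZMA*, with a coefficient of variation of CPM of 68.9% and a ratio of the highest to the lowest cow of 6.79. The coefficient was 48.7% in *KLRB1* and 44.1% in *GZMB*, and between 19.0% (*TBX21*) and 29.4% (*NKG7*) in the other 6 genes, with 23.8% in *TTC38*.

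High and low groups were then compared gene by gene. None of the 8 cytotoxic and NK genes other than *TTC38* was differentially expressed, and the high and low cows overlapped in each of them. The adjusted p was 0.998 for each of the 8 (edgeR's quasi-likelihood test, Benjamini-Hochberg over 11033 genes). At an unadjusted p of 0.05, 0 of the 8 passed in edgeR, in DESeq2 and in limma-voom. Over all tested genes, edgeR called 0.0% at an adjusted p of 0.05 and 231 genes, or 2.09%, at the unadjusted p, and the groups did not overlap in CPM in 0.0453% of them. The fold changes of 7 of the 8 genes were above 0, against 53.3% of all tested genes, with a median log2 fold change of 0.15 for the 8 and 0.01 for all tested genes.

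**Figure D1:**
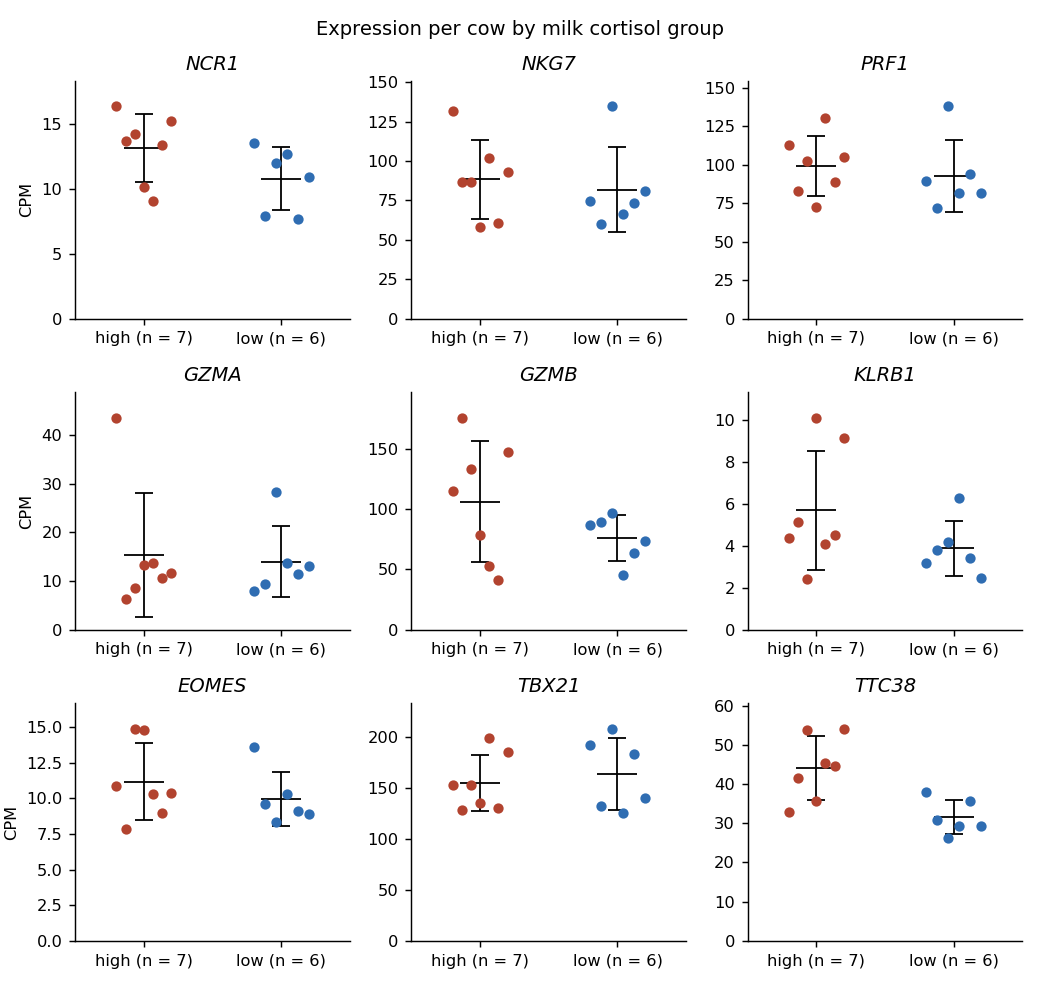
CPM of each gene in each cow (points), with the mean and SD of the group (bars), for 7 high and 6 low cows; each panel has its own axis from 0. The groups overlapped in all 9 panels, and *TTC38* had 5 of 7 high cows above every low cow.

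Among the receptors, *NCR1* had a lowest, median and highest value of 9.10, 13.7 and 16.4 CPM in the high group and of 7.71, 11.5 and 13.6 CPM among low cows. The mean was 13.2 ± 2.63 CPM against 10.8 ± 2.46 CPM (SD, n = 7 and 6), a log2 fold change of 0.28 (SE 0.18, 95% CI -0.10 to 0.66, unadjusted p = 0.143 in edgeR, exact two-sided permutation p = 0.140). *KLRB1* had 2.43, 4.53 and 10.1 CPM in the high group and 2.45, 3.59 and 6.28 CPM among low cows. The log2 fold change of *KLRB1*, 0.54, was the largest of the 8 genes (SE 0.31, 95% CI -0.12 to 1.202, unadjusted p = 0.0994 in edgeR, exact permutation p = 0.199). It was 0.35 without high replicate 4 and 0.21 with the log2 haemoglobin share of the counts (*HBB*, *HBG*, *HBM* and *HBQ1*) as a covariate. In that fit it was below *GZMB* (0.60), *GZMA* (0.58), *NCR1* (0.34) and *NKG7* (0.25). For *KLRB1*, 6 of 7 high cows were above the median of the low group. High replicates 4 and 7, with 10.1 and 9.13 CPM, were above every low cow, while the lowest of all 13 values, 2.43 CPM, was also that of a high cow.

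Of the granule genes, *GZMB* varied the most in absolute level within the high group. Its lowest, median and highest values were 41.6, 115 and 176 CPM in the high group and 45.5, 80.2 and 96.6 CPM in the low group. High replicates 1, 2, 3 and 7 were above every low cow and high replicate 6 was below every low cow, so the high group lay on both sides of the low group. The log2 fold change was 0.48 (SE 0.29, 95% CI -0.13 to 1.09, unadjusted p = 0.114 in edgeR, exact permutation p = 0.325), and the value covers both loci.

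*GZMA* was close in both groups except in 2 cows, 1 of each group. The high group had 6.42, 11.7 and 43.6 CPM (lowest, median and highest) and the low group 7.89, 12.3 and 28.3 CPM. High replicate 1 and low replicate 10 held the highest values of their groups, and the other 11 cows were between 6.42 and 13.8 CPM. The log2 fold change was 0.14 (SE 0.40, 95% CI -0.71 to 0.99, unadjusted p = 0.726 in edgeR, exact permutation p = 0.991). Its direction was set by single cows, since it was -0.38 without high replicate 1 and 0.48 without low replicate 10.

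*NKG7* had 58.4, 86.9 and 132 CPM in the high group and 60.1, 74.0 and 135 CPM in the low group, with the highest value in low replicate 10. Its log2 fold change was 0.11 (SE 0.20, 95% CI -0.32 to 0.55, unadjusted p = 0.584 in edgeR), which became -0.0083 without high replicate 1 and 0.32 without low replicate 10. *PRF1* had 72.7, 102 and 130 CPM in the high group and 71.6, 85.5 and 138 CPM in the low group, again with low replicate 10 highest. The log2 fold change of *PRF1* was 0.10 (SE 0.16, 95% CI -0.24 to 0.44, unadjusted p = 0.534 in edgeR), and 0.25 without low replicate 10. In both genes 5 of 7 high cows were above the median of the low group and no high cow was above all low cows.

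The T-box factors had opposite signs. *EOMES* had 7.88, 10.4 and 14.9 CPM in the high group and 8.32, 9.37 and 13.6 CPM among low cows, with a log2 fold change of 0.16 (SE 0.18, 95% CI -0.22 to 0.53, unadjusted p = 0.398 in edgeR). *TBX21* had 129, 153 and 199 CPM in the high group and 126, 162 and 208 CPM in the low group. It was the 1 gene of the 8 with a negative log2 fold change, -0.08 (SE 0.15, 95% CI -0.39 to 0.23, unadjusted p = 0.603 in edgeR), with 5 of 7 high cows below the median of the low group. That sign rested on low replicate 10, without which the log2 fold change was 0.0055.

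*TTC38* was higher in the high group, as its selection required. The lowest, median and highest values were 32.8, 44.6 and 54.1 CPM in the high group and 26.2, 30.2 and 37.8 CPM in the low group. All 7 high cows were above the median of the low group, 5 were above every low cow, and 4 of 6 low cows were below every high cow. The mean was 44.0 ± 8.16 CPM against 31.6 ± 4.37 CPM (SD, n = 7 and 6), a log2 fold change of 0.48 (SE 0.14), or 1.39-fold. The value was 0.53 with the cytotoxic score (the mean over the 8 genes of log2 CPM, each centred on its mean over the cows) as a covariate, and 0.24 with the log2 haemoglobin share of the counts as a covariate.

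**Figure D2:**
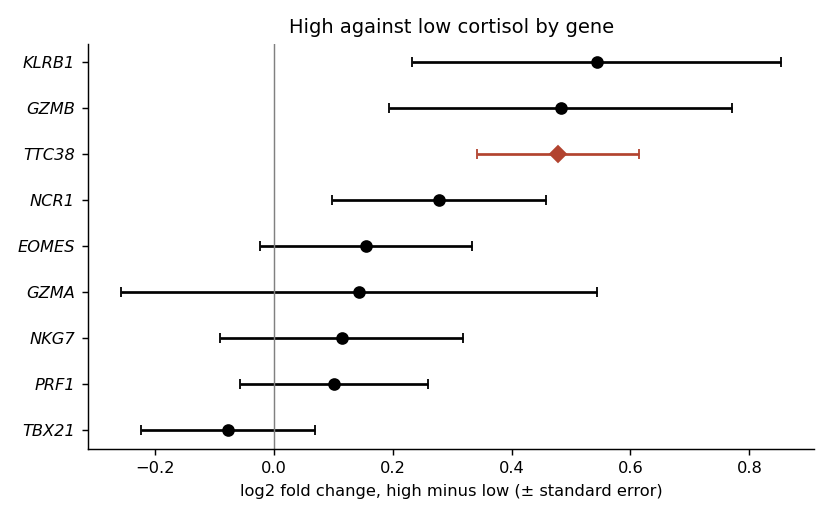
Log2 fold change of high against low cortisol (points) with its standard error (bars) from edgeR for the 9 genes, ordered by size; the diamond marks *TTC38*, which was chosen from this comparison. *KLRB1* (0.54), *GZMB* (0.48) and *TTC38* (0.48) were of like size, but the standard error was 0.31, 0.29 and 0.14, respectively.

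*TTC38* was next compared with each cytotoxic and NK gene across the 13 cows, on log2 CPM. None of the 8 correlations passed the test. The largest coefficients were those of *EOMES* (Pearson's r = 0.33, permutation p = 0.262; Spearman's rho = 0.35, permutation p = 0.244) and *NCR1* (r = 0.31, p = 0.308; rho = 0.37, p = 0.217). Then came *GZMB* (r = 0.27, permutation p = 0.364; rho = 0.21, p = 0.492). The coefficients were nearer to 0 for *PRF1* (r = 0.14, permutation p = 0.638; rho = 0.28, p = 0.352), *TBX21* (r = 0.12, p = 0.681; rho = 0.16, p = 0.604), *KLRB1* (r = 0.11, p = 0.710; rho = 0.060, p = 0.849) and *NKG7* (r = -0.059, p = 0.849; rho = 0.11, p = 0.724). *GZMA* had the coefficient farthest from 0, and it was negative (r = -0.48, permutation p = 0.0983; rho = -0.48, p = 0.101). These permutation tests were two-sided, and after Benjamini-Hochberg adjustment over the 11032 other tested genes the smallest p was 0.9998 for r and 1 for rho, over all genes.

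These values were set beside those of the other genes of the tables. At an unadjusted permutation p of 0.05, 0 of the 8 passed for r, against 265 genes or 2.4% of all, and 0 passed for rho, against 2.55%. After adjustment 0.0% of all genes passed. The coefficient was above 0 in 6 of the 8, against 49.3% of all genes. The median r was 0.13 for the 8 genes and -0.0040 over all genes, whose middle part by quartiles ran from -0.16 to 0.16, and 8.38% of all genes had a larger r with *TTC38* than *EOMES* had. At the other end, *GZMA* was at rank 10731 of the 11032 genes ordered from the largest r. With 13 cows the precision was low, since the 95% CI of r ran from -0.27 to 0.75 for *EOMES* and from -0.81 to 0.10 for *GZMA*.

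**Figure D3:**
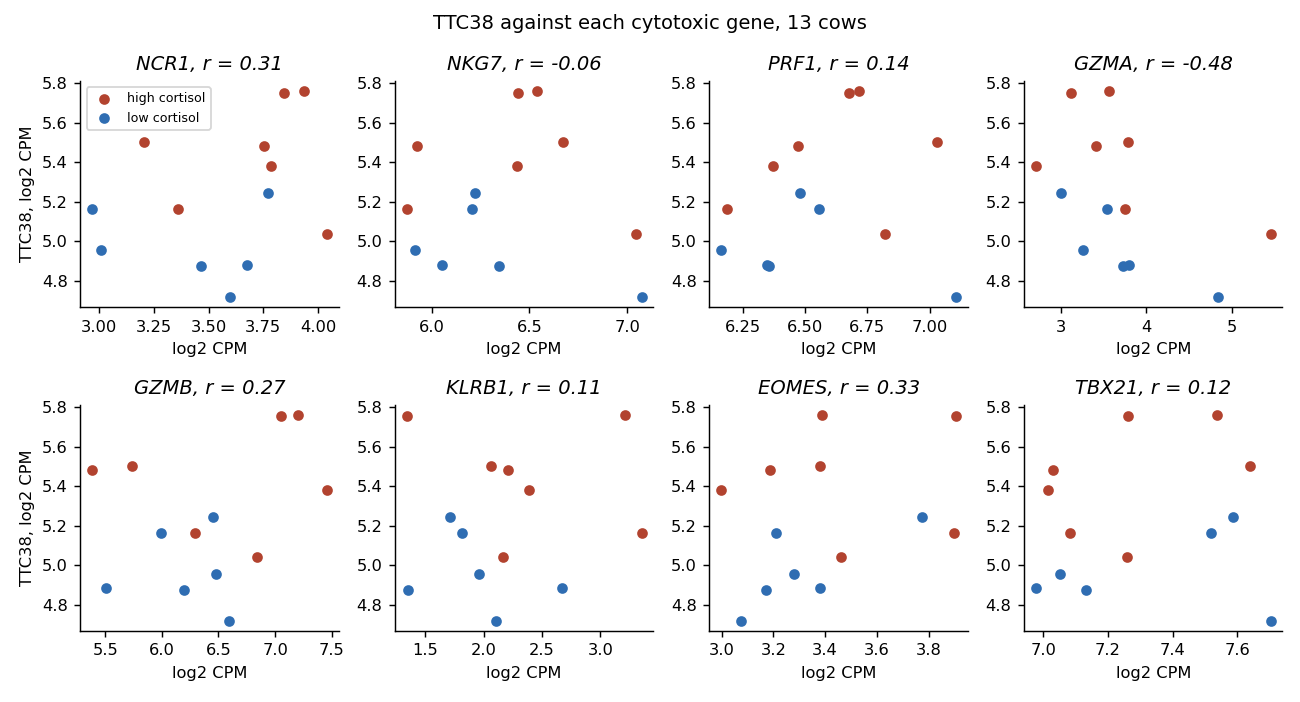
*TTC38* (vertical axis, log2 CPM) against each of the 8 cytotoxic and NK genes (horizontal axes, log2 CPM), 1 point per cow, red for high and blue for low cortisol. The coefficients ran from -0.48 (*GZMA*) to 0.33 (*EOMES*), and on the *TTC38* axis 5 of 7 high cows were above every low cow.

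The pooled coefficients hold the difference between the groups, so they were computed again within each group and after centring each gene on its group means. Within the high group r with *TTC38* ran from -0.63 (*GZMA*, exact permutation p = 0.123) to 0.42 (*TBX21*), and within the low group from -0.82 (*GZMA*, exact permutation p = 0.0361) to 0.72 (*EOMES*, exact permutation p = 0.104). *GZMA*, *NKG7* (-0.087 and -0.53 within the high and the low group) and *KLRB1* (-0.24 and -0.31) had a negative r within both groups. *GZMA* had the r farthest from 0 in both, and on centred values its r was -0.69 (permutation p = 0.0120, adjusted over all genes 0.994). It was the 1 of the 8 genes with an unadjusted p under 0.05 on centred values, where 2.69% of all genes passed. The rho of *GZMA* with *TTC38* was -0.36 within the high group and -0.89 within the low group. High replicate 1 and low replicate 10, with the highest *GZMA* of their groups, also had the lowest *TTC38* of their groups. The r of *NCR1* fell to -0.015 and that of *KLRB1* to -0.26 on centred values. *EOMES*, the gene with the largest pooled r, had r = 0.012 within the high group and a pooled r of 0.12 without high replicate 3.

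Some coefficients depended on a single cow. Without low replicate 10, which had the lowest *TTC38* (26.2 CPM) and the highest *PRF1*, *NKG7* and *TBX21*, r with *TTC38* was 0.53 for *PRF1*, 0.25 for *NKG7* and 0.42 for *TBX21*. Without that cow r was -0.34 for *GZMA*. Without the 2 cows farthest from the median of *TTC38*, r was 0.11 for *EOMES*, 0.023 for *NCR1*, -0.14 for *GZMB* and 1.3e-04 for *PRF1*, and it was -0.48 for *GZMA*. Those 2 cows were high replicates 3 and 7, and neither held the highest or the lowest *GZMA*.

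The mean over the 8 genes, the cytotoxic score, was described in the same way. The score was between -0.26 and 0.45 log2 units among high cows (median 0.025) and between -0.29 and 0.33 among low cows (median -0.17), so the groups overlapped. High replicate 1 and low replicate 10, with the highest *GZMA* of their groups, also had the highest scores of their groups. The 8 genes were not scaled to equal variance in the score, and their r with it ran from 0.15 (*EOMES*) to 0.80 (*NKG7*). The r of the score with *TTC38* was 0.078 (rho = 0.19), with -0.23 within the high group and -0.46 within the low group. *TTC38* was at rank 4192 of the 11033 genes ordered by r with the score, and 38.0% of the genes had a larger r. A low score or level in a bulk sample cannot be assigned to fewer cytotoxic cells or to less RNA per cell, since these cannot be told apart.

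The cytotoxic genes also differed in how they varied with each other. Over their 28 pairs the median r was 0.11, with a range of -0.21 to 0.86, and 20 pairs were above 0. In 5 pairs, or 17.9%, r was above 0.5, against 13.23% of all pairs of tested genes. Those 5 pairs joined 4 genes, *NKG7*, *PRF1*, *GZMA* and *TBX21*. The largest r was that of *NKG7* with *PRF1* (0.86, with 0.78 within the high group and 0.95 within the low group), followed by *PRF1* with *TBX21* (0.77, with 0.83 and 0.81). *NKG7* had an r of 0.65 with *GZMA* and of 0.59 with *TBX21*, and *PRF1* had 0.54 with *GZMA*. In the pairs with *GZMA*, the rho was lower, 0.35 with *NKG7* and 0.35 with *PRF1*, and the highest *GZMA* values were those of high replicate 1 and low replicate 10. The r between the granzymes *GZMA* and *GZMB* was -0.072, and that between the T-box factors *EOMES* and *TBX21* was 0.045. The pairs were not tested, because the genes share their cows and libraries.

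**Figure D4:**
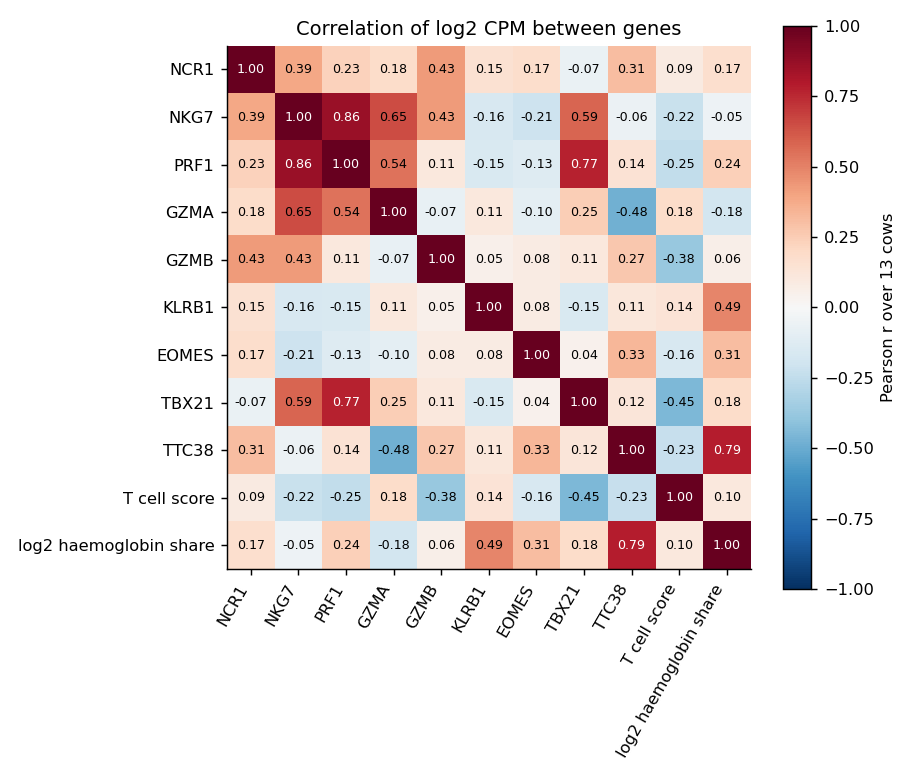
Pearson's r of log2 CPM over 13 cows for each pair of the 9 genes, with the mean of 8 T cell genes (T cell score) and the log2 haemoglobin share of the counts; red is positive and blue negative. *NKG7*, *PRF1* and *TBX21* form a positive block, while *TTC38* has its largest value, 0.79, with the haemoglobin share.

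The genes closest to *TTC38* by pooled r over the 13 cows were not cytotoxic genes. The 10 genes with the largest r were *GCSAM* (0.82), *ABCC8* (0.82), *HBG* (0.82), *HBB* (0.79), *RNF215* (0.77), *BCL2L2* (0.76), *HBM* (0.75), *FAM84A* (0.74), *ADIPOR2* (0.74) and *GRAMD4* (0.73), and none passed adjustment (smallest adjusted permutation p 0.9998). On values centred on group means, *ABCC8* was at rank 8 by r (0.76). The others of the 10 were between rank 44 (*GCSAM*, 0.68) and rank 215 (*FAM84A*, 0.55). *HBG*, *HBB* and *HBM* encode haemoglobin chains, *BCL2L2* an inhibitor of apoptosis and *ADIPOR2* an adiponectin receptor. All 10 were higher in the high group, 7 of them with an unadjusted p under 0.05 in edgeR, where the share of all tested genes was 0.934%. *TTC38* had itself been taken from that comparison, and the pooled r holds its group difference. Genes higher in the high group were therefore favoured by the ranking, and the 7 are no enrichment. Within the high group r was above 0.5 in 10 of 10, and within the low group in 1 of 10, *GRAMD4* (0.92). The 10 genes were picked by r over these same cows, so both counts are a description and no test. The share of all genes above 0.5 within a group is not given here. *ABCC8* was low, with 6 to 36 reads per cow.

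**Figure D5:**
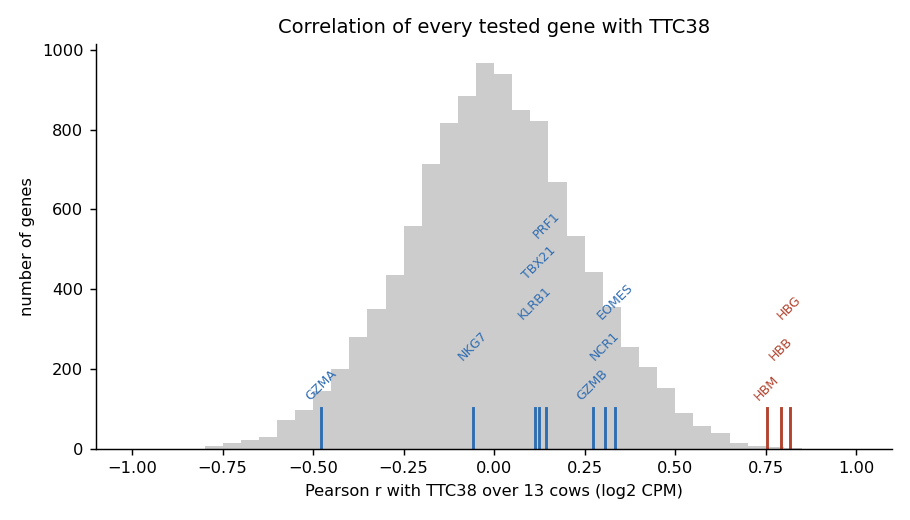
Distribution of Pearson's r with *TTC38* over 13 cows for the 11032 other tested genes (grey bars, number of genes), with the 8 cytotoxic and NK genes marked in blue and 3 haemoglobin genes in red. The blue marks run from -0.48 (*GZMA*, rank 10731 of 11032 from the largest r) to 0.33 (*EOMES*, rank 925), and the red marks lie at 0.75 to 0.82.

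The relation of *TTC38* with the haemoglobin genes was taken up after these values were seen, so the coefficients that follow are a description with no test. Those over all cows also hold the difference between the groups by which *TTC38* was chosen. The haemoglobin share of the counts, which stands for RNA of reticulocytes and erythroid cells in whole blood, was 0.0282% to 0.815% among high cows (median 0.118%) and 0.0114% to 0.0552% among low cows (median 0.0289%). Its log2 value had an r of 0.79 with *TTC38* (rho = 0.76), which was 0.67 without the 2 cows farthest from its median. It was 0.77 within the high group, 0.094 within the low group and 0.61 on centred values. The same share had an r of 0.23 with the cytotoxic score. *ALAS2*, the erythroid enzyme that starts haem synthesis, had an r of 0.59 with *TTC38* and of 0.61 with the cytotoxic score. *HBQ1*, another haemoglobin gene, had an r of 0.43 with *TTC38* and of 0.18 with the score. The part of erythroid RNA in the values of *TTC38* was not tested beyond the covariate given above. Of the neighbours of *TTC38* on chromosome 5, *GTSE1* starts 4253 bp after it and had an r of -0.25, and *CDPF1* ends 401894 bp before it and had an r of 0.14.

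Of the 10 genes outside the members that were closest to the cytotoxic score, 0 were among the 10 closest to *TTC38*. They were *PPEF1* (r = 0.89, 7 to 44 reads per cow), *S1PR5* (0.81), *NUDT16* (0.80), *C3orf62* (0.80), *ATP6V0A4* (0.80), *MSH5* (0.78), *CXCR6* (0.77), *DNAH10* (0.77), *AK7* (0.77) and *THUMPD2* (0.76). *S1PR5* encodes a sphingosine-1-phosphate receptor by which NK cells leave lymphoid tissue and bone marrow, and *CXCR6* a chemokine receptor of NK and T cells. *S1PR5* had a lowest, median and highest value of 28.5, 46.8 and 62.7 CPM in the high group and of 30.0, 35.4 and 62.2 CPM in the low group. Its r with *TTC38* was 0.25, and that of *CXCR6* 0.29, in the range of the 8 genes themselves.

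Further genes of the cytotoxic programme were described by lists. Of 16 genes of granules and killing, 13 were tested, and 7 had a fold change above 0 and 6 below 0, with a median log2 fold change of 0.01 and 0 genes under an unadjusted p of 0.05. *GZMM*, another granzyme, had the smallest p of this list. Its lowest, median and highest values were 15.4, 24.8 and 38.6 CPM in the high group and 14.6, 17.4 and 27.4 CPM in the low group (log2 fold change 0.43, SE 0.22, unadjusted p = 0.0673 in edgeR, adjusted 0.998). Its r with *TTC38* was 0.44, with 0.58 within the high group and -0.72 within the low group. *FASLG*, the ligand of the death receptor Fas, had a log2 fold change of 0.27 (SE 0.16, unadjusted p = 0.116), while *SRGN*, the proteoglycan that packs granules, had -0.07 (SE 0.25) and *SERPINB9*, the inhibitor of granzyme B, 0.01 (SE 0.34).

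Of 31 NK receptors and adaptors, 21 were tested, with 12 above and 9 below 0 and 0 under an unadjusted p of 0.05. The smallest p was that of *CD2*, an adhesion receptor of T and NK cells (log2 fold change -0.19, SE 0.11, unadjusted p = 0.117 in edgeR, exact permutation p = 0.0973). *SH2D1A*, the adaptor SAP, followed (log2 fold change 0.33, SE 0.22, unadjusted p = 0.154 in edgeR). The chemokine gene *CCL5* and the adaptor gene *TYROBP* had log2 fold changes of 0.01 (SE 0.26) and -0.0003 (SE 0.14). Of 10 further transcription factors of cytotoxic cells, 7 were above and 3 below 0. *PRDM1* (Blimp-1) was the 1 gene with an unadjusted p under 0.05, with 30.1, 42.4 and 49.6 CPM in the high group and 44.0, 47.5 and 62.3 CPM in the low group (log2 fold change -0.26, SE 0.12, unadjusted p = 0.0494 in edgeR, adjusted 0.998). Of all tested genes, 1.16% were under-expressed in the high group at this unadjusted threshold. The median r with *TTC38* was -0.038 for the granule list, 0.037 for the receptors and adaptors and -0.011 for the transcription factors. *TOX* had a log2 fold change of -0.20 (SE 0.14), *ID2* of 0.02 (SE 0.15) and *ZNF683* (Hobit) of 0.0046 (SE 0.27).

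Genes of the other cells of blood were examined in the same cows. The 8 T cell genes had summed levels of 2146 to 3072 CPM in the high group and 2335 to 3640 CPM in the low group, 2 fold changes above and 6 below 0, and 0 genes under an unadjusted p of 0.05. The T cell score had an r of -0.17 with the cytotoxic score and of -0.23 with *TTC38*. *CD8A* and *CD8B*, the co-receptor of cytotoxic T cells, had log2 fold changes of 0.07 (SE 0.12) and -0.12 (SE 0.14) and an r with *TTC38* of 0.080 and 0.032. *TARP*, the gene name that holds the gamma T cell receptor locus and was the 1 found of 3 listed gamma delta T cell genes, was lower in the high group, with 5.78, 17.7 and 23.9 CPM against 19.2, 32.1 and 49.7 CPM (log2 fold change -0.93, SE 0.28, unadjusted p = 0.00481 in edgeR, adjusted 0.998). Its r with *TTC38* was -0.50 over all cows, but -0.078 within the high group and -0.052 within the low group.

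At an unadjusted p of 0.05 in edgeR, 0.934% of all tested genes were higher and 1.16% lower among high cows. The 7 B cell genes were all above 0 (median log2 fold change 0.14) and had a median r with *TTC38* of 0.29. Among them *CR2*, the complement receptor, had a log2 fold change of 0.61 (SE 0.28, unadjusted p = 0.0436 in edgeR, exact permutation p = 0.0659). Of 6 neutrophil genes, *S100A9* (log2 fold change -0.44, SE 0.16, unadjusted p = 0.0166 in edgeR, exact permutation p = 0.0245) and *CSF3R* (-0.45, SE 0.19, p = 0.0324 in edgeR, exact permutation p = 0.0536) were under the unadjusted threshold of edgeR, while *S100A8* (0.45, SE 0.45) and *S100A12* (0.25, SE 0.35) had values above 0. The 6 neutrophil genes, 2 of them above and 4 below 0, had a median r with *TTC38* of -0.25, and of 0.016 on centred values. Of 7 monocyte genes, 4 were above and 3 below 0, with a median log2 fold change of 0.06. *CD68* was the 1 of them under the unadjusted threshold (-0.53, SE 0.17, p = 0.00748 in edgeR, exact permutation p = 0.0198), and *CD163* (0.19, SE 0.27) and *CD14* (0.06, SE 0.21) had values above 0. The 3 eosinophil genes tested had a median log2 fold change of 0.42 and the 5 platelet genes of -0.28, of which *GP1BB* (-0.61, SE 0.28, unadjusted p = 0.0420 in edgeR) was under 0.05. The 5 erythroid genes tested had a median log2 fold change of 2.68, and 4 of them were under 0.05 unadjusted in edgeR. Of these, *HBG* and *HBB* had an exact permutation p of 0.0128 and 0.0175, but *ALAS2* one of 0.104 (edgeR p = 0.0188). The summed levels of all 7 listed erythroid genes, tested or not, were 385 to 8002 CPM in the high group and 138 to 578 CPM in the low group. The 5 tested had a median r with *TTC38* of 0.75, the largest of the lists examined. No gene of these lists had an adjusted p under 0.05.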

How the data were processed

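Whole-blood RNA of 13 cows (7 high, 6 low milk cortisol, from the sample labels) was analysed. The paper describes more cows per group than the 13, and others were not used here. The authors deposited raw counts of reads per gene name. The file headers give featureCounts 1.4.6-p3 with exons of Ensembl 88 on UMD3.1, an animal number that differs from the table's name and a folder named goat. The submitters' processing notes instead name STAR 2.7.3, Subread 1.6.5 and ARS-UCD1.2. The aligner of these tables is not named in their headers. The unnamed entry (13.864 to 16.726% of counts) was left out. No libraries were identical. Globin RNA was not depleted, and the haemoglobin genes held 0.0114% to 0.815% of the counts of a cow. With these genes left out of the fit, the log2 fold change was 0.4778 for *TTC38* (0.4776 with them) and 0.5433 for *KLRB1* (0.5432 with them).

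From these counts, TMM-scaled CPM were obtained, and log2 CPM with a prior count of 2. Groups were compared in R 4.3.3 with edgeR 4.0.16 (robust quasi-likelihood, filterByExpr with minimum count 10 and total 15, Benjamini-Hochberg), tested on simulated data. DESeq2 1.42.0 and limma 3.58.1 were alternatives, with other scalings, filters, covariates and each cow left out. Standard errors are the log2 fold change over the square root of F. Correlations over 13 cows used 100000 permutations; within groups and for single genes all splits or orders were enumerated (1716 splits of the 13 cows). Each test took the cow as its unit, and the p-values concern these 13 cows only. Named genes were the members, the 10 closest to *TTC38* and to the score, the neighbours of *TTC38*, and up to 4 per list (the 2 smallest and 2 largest p). *ALAS2*, *HBQ1* and the haemoglobin share were added after values were seen. The members and lists were chosen with earlier results of these data known.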

Additional observations from a re-analysis of the deposited data

Results flagged for a closer look

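In each group of cows, the lowest and the highest value of 12 measures were compared with the rest by Dixon's 95% limit, and 2 of the 48 comparisons exceeded it. Chance alone puts about 1 in 20 groups beyond this limit, and 24 groups were examined. *NKG7* of low replicate 10 had a log2 CPM of 7.07 (135 CPM), while the other 5 low cows were between 5.91 and 6.34, and its gap took 0.630 of the group's range against a limit of 0.625. *GZMA* of high replicate 1 had a log2 CPM of 5.45 (43.6 CPM), while the other 6 high cows were between 2.71 and 3.79, a gap of 0.607 against 0.568. Both cows were the highest of their group in *NKG7* and *GZMA*.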

How the results depend on the processing

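In every alternative run, 0 of the 8 cytotoxic genes passed an adjusted p of 0.05, between groups or in r with *TTC38*. Over all genes DESeq2 called 1 gene and the other fits 0; at the unadjusted p the count was 348 in DESeq2, 414 without a filter, 120 with the haemoglobin share as covariate and 191 to 373 with 1 cow left out (highest without high replicate 2). With 1 cow left out, 1 of the 8 passed the unadjusted p without high replicate 3 or low replicate 11 (*KLRB1*, log2 fold change 0.67 and 0.74) and without high replicate 5 or 6 (*GZMB*, 0.60 and 0.62). Ranges of the log2 fold change with 1 cow left out were -0.0083 to 0.32 for *NKG7*, -0.38 to 0.48 for *GZMA*, -0.15 to 0.0055 for *TBX21* and 0.42 to 0.54 for *TTC38*, and they were 0.35 to 0.74 for *KLRB1* (lowest without high replicate 4), 0.33 to 0.62 for *GZMB* (lowest without high replicate 2), 0.075 to 0.27 for *EOMES* and 0.021 to 0.25 for *PRF1*. With the haemoglobin share as covariate the log2 fold change was 0.24 for *TTC38*, 0.60 for *GZMB*, 0.58 for *GZMA*, 0.34 for *NCR1* and 0.25 for *NKG7*. In the same fit it was 0.21 for *KLRB1*, 0.07 for *EOMES*, 0.03 for *PRF1* and -0.24 for *TBX21*. The r with *TTC38* ran from -0.16 to 0.25 for *NKG7*, -0.17 to 0.38 for *KLRB1*, -0.011 to 0.42 for *TBX21*, 0.12 to 0.43 for *EOMES* (lowest without high replicate 3), 0.11 to 0.45 for *GZMB* (lowest without high replicate 7), 0.030 to 0.53 for *PRF1* (lowest without high replicate 5), 0.18 to 0.42 for *NCR1* (lowest without high replicate 7) and, for the score, -0.15 (without high replicate 7) to 0.33 (without low replicate 10). The sign of r turned for *NKG7* as rho (0.11), on centred values for *NCR1* (-0.015) and *KLRB1* (-0.26), with the haemoglobin share held fixed for *PRF1* (-0.069), *KLRB1* (-0.50) and *TBX21* (-0.030), and without the 2 cows farthest from the median of *TTC38* for *GZMB* (-0.14) and *TBX21* (-0.0053). For *GZMA* r ran from -0.54 (without low replicate 9) to -0.34 (without low replicate 10) with 1 cow left out, and its sign did not turn. With the haemoglobin share held fixed the r of *GZMA* was -0.55 (unadjusted permutation p = 0.0498). The r of the score was -0.31 on centred values, -0.24 without the 2 cows farthest from the median of *TTC38* and -0.075 without the 2 cows farthest from the median of the score. The haemoglobin alternatives and the last one were chosen after seeing the data. The cause of these changes was not tested. No paired analysis was possible because the high and low cows were different animals and the labels give no pairs. With 7 and 6 cows, the 95% CI of the log2 fold change of each of the 8 genes included 0, and *KLRB1*, with 30 to 198 reads per cow, had the fewest reads.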
